A study of Mus musculus with 8 samples.

Results

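The cytosolic ribosome is built from ribosomal RNA and a fixed set of ribosomal proteins, named RPL for the large (60S) and RPS for the small (40S) subunit. Their genes were followed here through RNA immunoprecipitation (IP) of the germ-cell RNA-binding protein DAZL. Members were the array probes whose gene name begins with Rpl or Rps and a number, or is Rplp0, Rplp1, Rplp2 or Rpsa, without the Rps6k kinases, pseudogene names ending in -ps and names with an l before a digit. The rule took 133 of 41174 gene probes, which stand for 80 genes. Of these, 76 genes are ribosomal proteins of the standard set, 45 of the large and 31 of the small subunit, and they are the members described below. The remaining 4 were counted apart: Rpl3l, Rpl36al and Rps27l encode variants of standard proteins, and Rps19bp1 encodes a protein that binds RPS19. All 76 members were among the 19032 genes tested and were well above background on all 8 arrays. They passed 125 of their 128 probes through the filter on dim probes.

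V6.5 mouse embryonic stem cells, of mixed C57BL/6 and 129SV background, were the source of the primordial germ cells studied, which were derived in vitro. In all 4 groups they expressed DAZL joined to GFP and a V5 tag, and all were harvested after 12 days of differentiation. The groups, with 2 arrays each, were RNA from an IP with an antibody against V5, RNA from an IP with an antibody against GFP, RNA from a mock IP with normal mouse IgG, and total input RNA. The IPs used native lysates without ultraviolet crosslinking, and the design gives them as 2 independent experiments. The labels do not say whether separate cultures were used, so a p-value here reflects only how far these arrays spread, which may be technical.

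Ribosomal protein mRNAs are among the most abundant in dividing cells and are translated in concert. In mammals most of them begin with a run of pyrimidines, the 5' terminal oligopyrimidine tract, through which growth signals set how fully the group is loaded on ribosomes. DAZL, in contrast, is known for binding mRNAs of germ-cell genes in their 3' untranslated regions.

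The bases around the annotated start of transcription are shown for the members with the lowest and the highest V5 IP values relative to mock IP, because the start is the feature that the group is best known to share. Each window runs 5' to 3' along the gene, with 15 bases before the annotated start and 15 from it on, from RefSeq on the GRCm38.p6 build. Capitals mark the longest unbroken run of C and T within 5 bases of the start. The first 5 belong to members with the lowest V5 IP values. Rpl35 lies at chr2:39005117-39005146 on the minus strand, Rpl26 at chr11:68901551-68901580 on the plus strand and Rpl39 at chrX:37085208-37085237 on the minus strand. Rpsa lies at chr9:120127751-120127780 and Rps15 at chr10:80292416-80292445, both on the plus strand. The last pair belongs to the members with the highest V5 IP value of each subunit, Rpl31 at chr1:39367836-39367865 on the plus strand and Rps10 at chr17:27635230-27635259 on the minus strand.
Rpl35: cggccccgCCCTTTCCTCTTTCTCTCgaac
Rpl26: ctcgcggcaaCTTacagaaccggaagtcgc
Rpl39: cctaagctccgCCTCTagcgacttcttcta
Rpsa: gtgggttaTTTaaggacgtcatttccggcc
Rps15: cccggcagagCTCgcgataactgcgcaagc
Rpl31: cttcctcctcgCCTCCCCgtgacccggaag
Rps10: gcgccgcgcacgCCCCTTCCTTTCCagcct

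The run was 18 bases long in Rpl35 and 3 in Rpl26, both among the lowest, and 13 in Rps10, the highest of the small subunit. Of 56 members with a promoter entry, 28 (50%) had a run of at least 6 bases, against 24.0% of 27025 genes in the table. The median log2 fold change of those 28 was -0.76 in V5 IP against mock IP, and that of the other 28 members with an entry was -0.73. In GFP IP against mock IP the medians were -0.91 and -0.86. An annotated start need not be the one used in these cells.

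Levels are log2 of the processed spot intensity minus the array's 75th percentile, so that 0 is the level of the 75th percentile probe. Every fold is thus relative to that percentile, and is not an amount recovered. Less RNA of a gene and more RNA of the others cannot be told apart on this scale, nor can fewer cells of a type and less RNA per cell. The share of gene probes well above background ranged from 61.3% to 70.5%. The 75th percentile was lowest on mock IP 1, at 352, and ranged from 641 to 1130 over the remaining 7. Mock IP 1 also stood apart for the members, whose median deviation from their own 8-array mean was 0.95 there and 0.25 on mock IP 2. Dazl mRNA was higher in both DAZL IPs than in mock IP, by log2 2.63 with V5 (adjusted p = 0.0049) and 2.71 with GFP (adjusted p = 0.0039, limma). Of 10 germ-cell markers, 9 were measured and well above background on all arrays. So were, of other cell types, 6 of 8 fibroblast, 2 of 3 neuron, 2 of 3 endothelium, 2 of 3 endoderm and 1 of 3 erythroid markers. As a sum, the 8 fibroblast markers were lower in the DAZL IPs. Their summed linear level, in multiples of the 75th percentile, was 6.49 and 5.11 with V5 and 5.74 and 4.81 with GFP. It was 20.3 and 8.92 in mock IP and 12.2 and 10.2 in input, so mock IP 2 lay below both input arrays. Their median fold change was -0.96 with V5 and -1.10 with GFP against mock IP, and -0.84 and -1.11 against input. In mock IP against input it was -0.26, where that of the members was 0.65. Of the 8, 2 were called lower and 0 higher in each DAZL IP against mock IP. Of all genes 21.4% were lower with V5 and 26.5% with GFP. Of the 9 germ-cell markers 4 were called higher and 1 lower in each DAZL IP, where 14.6% and 16.3% of all genes were higher. The neuron markers had medians of 1.28 with V5 and 1.33 with GFP against mock IP, with 2 of 3 called higher. The 2 endoderm markers measured had medians of -0.47 and -0.64 against mock IP, with 0 called. Against input their medians were -1.46 with V5, -1.63 with GFP and -0.99 in mock IP. The 2 erythroid markers measured had medians of -0.63 and -1.0, and the 3 endothelium markers 0.07 and 0.12, against mock IP. The part of other cell types in the results was not tested.

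**Figure D1:**
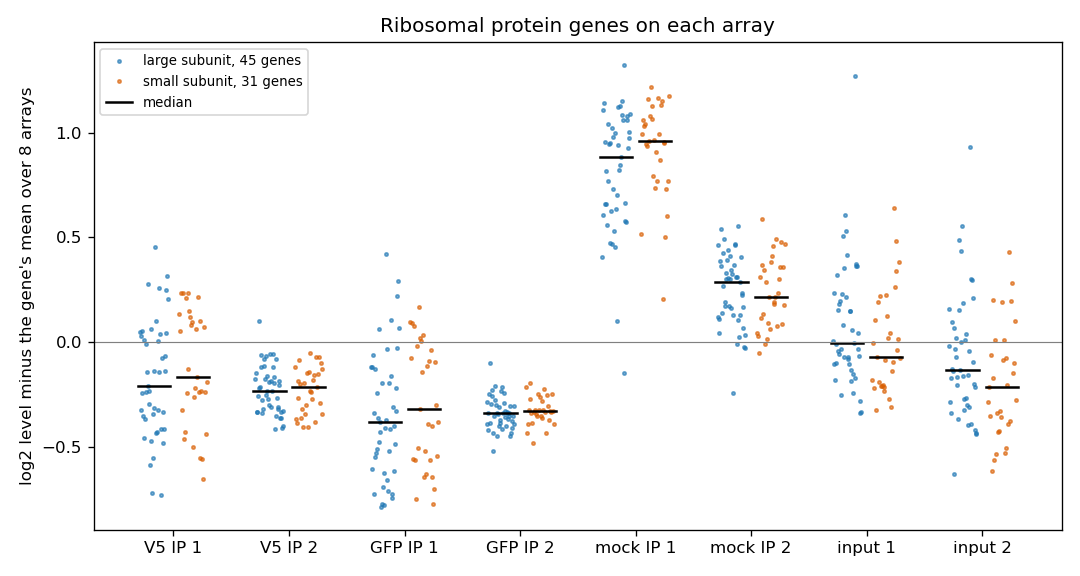
Each point is 1 member gene on 1 array, as its log2 level minus its own mean over the 8 arrays, with large subunit genes in blue, small subunit genes in orange and black bars at the medians. Mock IP 1 lies highest, with medians of 0.89 and 0.96, and the medians of the V5 IP and GFP IP arrays all lie below 0.

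As a group, ribosomal protein mRNAs were lower in the V5 IP than in mock. The fold change was below 0 for 75 of 76 members (62 of 76 with quantile normalization), against 12807 of all 19032 genes. Of the members 25 passed the test, all lower (limma, Benjamini-Hochberg over all genes). Lower calls made up 32.9% of the members, against 21.4% of all 19032 genes, and no member was called higher, against 14.6% of all genes (0 members also at an unadjusted p under 0.05). The members' median was -0.75 and that of all genes was -0.44, a distance of -0.31, which was -0.48 on slide 1 and -0.12 on slide 2. With quantile normalization the distance was -0.029.

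The number of calls moved with the arrays in the fit, also where the array left out was not in the comparison. Without an input or a GFP IP array the members' median in V5 IP against mock IP stayed at -0.75. There only the estimate of the spread, which all groups share, changed. With slide as a block it was 56, against 38.5% of all genes. With mock IP 1 left out it was 0, against 0.41% of all genes, and with mock IP 2 left out it was 57, against 26.8%. It was also 0 without V5 IP 1 (0.284% of all genes) and without either input array (2.32%), 4 without V5 IP 2 (10.7%), and 13 without either GFP IP array (15%). Each slide held 1 array of every group and was scanned apart, and 75 of 76 members had a lower V5 IP than mock IP value on both, against 62.1% of all genes. Each group also had the same position on both slides. An effect of position would recur on both slides and cannot be told apart from that of the group.

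Rpl26 encodes a large subunit protein that lies near the exit of the nascent chain tunnel. Its log2 level was 7.38 and 7.60 on the V5 IP arrays and 7.08 and 7.40 on the GFP IP arrays, against 8.83 and 8.29 on the mock IP arrays and 8.20 and 8.0 on the input arrays. Both DAZL IPs thus lay below both controls without overlap. Relative to mock IP, Rpl26 was 2.10-fold lower with V5 (log2 -1.07, SE 0.27, adjusted p = 0.026) and 2.49-fold lower with GFP (log2 -1.32, SE 0.27, adjusted p = 0.012).

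Among the lowest large subunit values in V5 IP against mock IP, beside Rpl35 and Rpl26, were those of Rpl39, Rpl36 and Rpl28, whose products are also structural proteins of the 60S subunit. Rpl35 had 7.28 and 7.48 in the V5 IP, 7.06 and 7.38 in the GFP IP, 8.84 and 8.08 in mock IP and 7.87 and 7.73 in input. Its fold change was -1.08 ± 0.30 with V5 (adjusted p = 0.032) and -1.24 ± 0.30 with GFP (adjusted p = 0.018). Rpl39, the gene of a very short protein of the exit tunnel, had 6.52 and 6.86 in the V5 IP, 6.20 and 6.60 in the GFP IP, 8.0 and 7.49 in mock IP and 6.93 and 6.90 in input. For both genes the 4 DAZL IP arrays lay below all 4 control arrays, but for Rpl39 V5 IP 2 was within 0.1 of both input arrays. Rpl36 and Rpl28 both fell by 1.01 in V5 IP against mock IP, with adjusted p of 0.032 and 0.029. In GFP IP against mock IP they fell by 1.17 and 1.22.

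Of the small subunit, the lowest was Rpsa, which encodes RPSA, a 40S protein also known as the laminin receptor. It had 6.69 and 6.54 in the V5 IP, 6.50 and 6.49 in the GFP IP, 8.05 and 7.35 in mock IP and 6.81 and 6.60 in input. The DAZL IPs lay below both mock arrays but V5 IP 1 lay between the input arrays. Its fold change was -1.09 ± 0.28 with V5 (adjusted p = 0.027) and -1.20 ± 0.28 with GFP (adjusted p = 0.016). Rps15, Rps29 and Rps15a were also among the lowest in V5 IP against mock IP, falling by 1.04, 1.01 and 0.96, with adjusted p of 0.026, 0.030 and 0.036.

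Through their brightest probes, the 3 stalk genes were not called in any of the comparisons. Rplp0, Rplp1 and Rplp2 encode the acidic proteins of the large subunit's stalk, which recruits the elongation factors. Rplp1 had 9.30 and 8.59 in the V5 IP, 9.27 and 8.59 in the GFP IP, 9.95 and 8.95 in mock IP and 8.64 and 8.55 in input. The groups overlapped between V5 IP and mock IP. The 3 values in V5 IP against mock IP were -0.57 for Rplp0, -0.51 for Rplp1 and -0.62 for Rplp2, with adjusted p between 0.22 and 0.35. With quantile normalization all 3 were above 0. Rplp0 has dimmer kept probes that lay lower. A first had 5.76 and 5.81 with V5, 5.56 and 5.62 with GFP and 7.41 and 6.61 in mock IP. Another had 7.84 and 7.66 with V5, 7.62 and 7.52 with GFP and 9.17 and 8.33 in mock IP. On both probes the DAZL IP arrays lay below both mock IP arrays.

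At the other end, Rpl31 was the single member above 0 in both comparisons with mock IP. It had 3.45 and 2.81 in the V5 IP, 3.41 and 2.78 in the GFP IP, 3.1 and 2.75 in mock IP and 2.92 and 2.72 in input. All groups overlapped, and the fold change was 0.20 ± 0.33 with V5 (adjusted p = 0.63). The next were Rps10 at -0.27, Rpl10 at -0.33, Rpl21 at -0.34 and Rpl4 at -0.44, none of which was called. RPL10 is the protein that joins the large subunit late in its assembly.

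**Figure D2:**
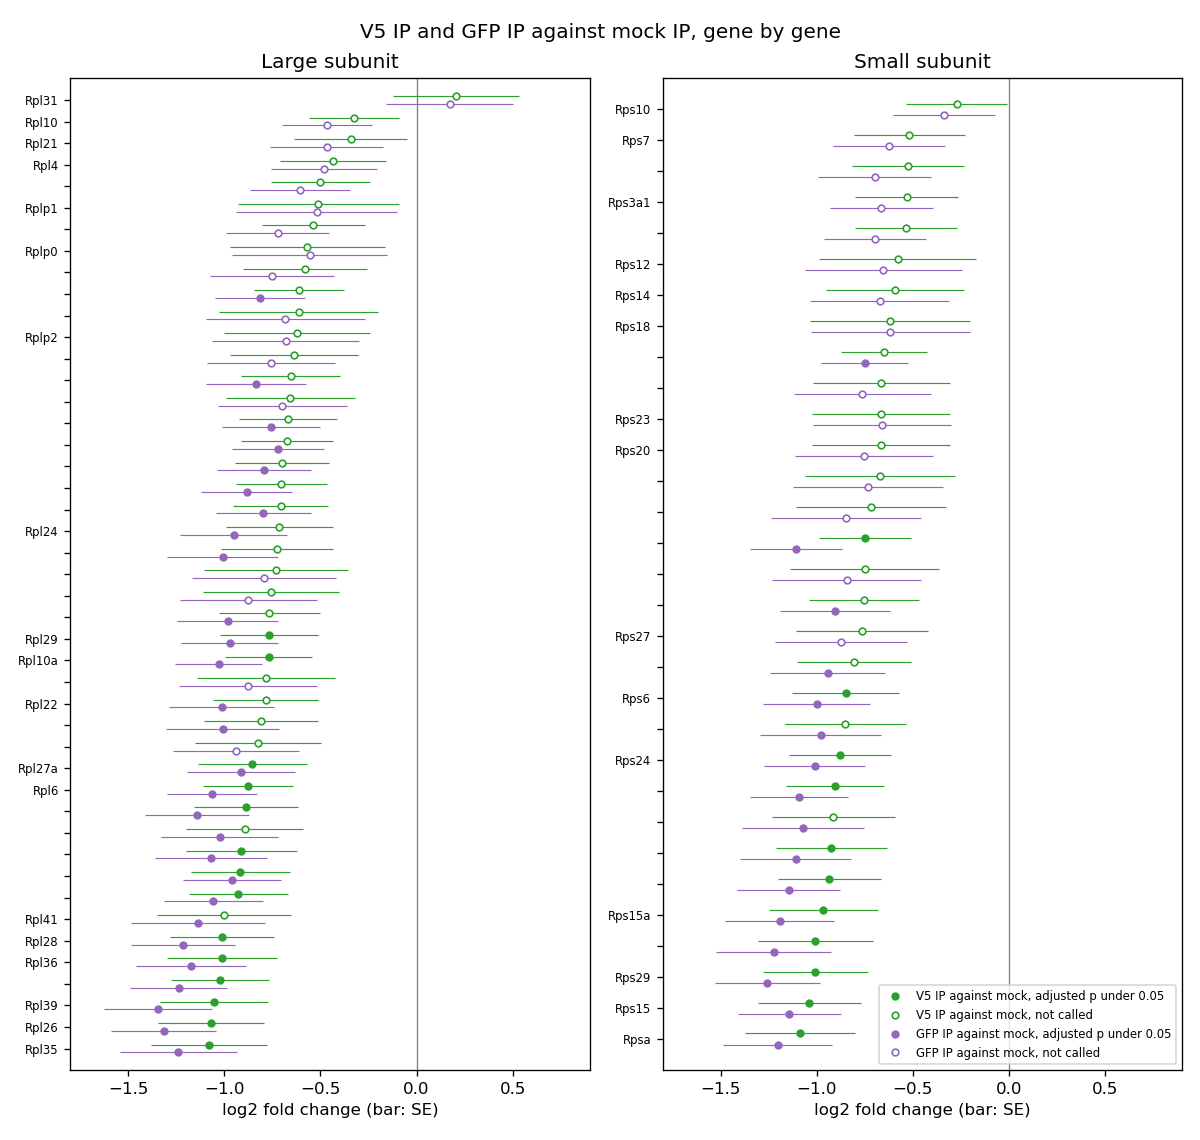
Each row is 1 of the 76 members, labelled where the text names it, with its log2 fold change in V5 IP against mock IP (green) and in GFP IP against mock IP (purple), bars of 1 SE and filled points for an adjusted p under 0.05. All points but those of Rpl31 lie below 0 (with quantile normalization, 62 of 76 members with V5 and 64 with GFP), and the lowest genes of both subunits lie near each other.

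In the GFP IP 44 of 76 members passed the test, all lower than in mock IP. They made up 57.9% of the members, against 26.5% of all genes, and no member was higher, against 16.3% (0 also at an unadjusted p under 0.05). The members' median was -0.88 and that of all genes was -0.44. The distance was -0.70 on slide 1 and -0.21 on slide 2, and 75 of 76 members were lower on both, against 60.5% of all genes. All 25 members called in V5 IP were among the 44, which is 100% of the first list and 56.8% of the second, but both comparisons share the mock IP arrays. The lowest were Rpl39 at -1.35 ± 0.28 (adjusted p = 0.012) and Rpl26. Rps29 fell by 1.26 and Rps15a by 1.19. The highest of the small subunit were Rps10, Rps18, Rps7, Rps12 and Rps23, between -0.34 and -0.66. With slide as a block the count was 67, against 40.3% of all genes. It was 4 without mock IP 1, against 5.54% of all genes, and 63 without mock IP 2, against 28.4%. It was 0 without GFP IP 1 (0.762% of all genes), 20 without GFP IP 2 (13.8%) and 23 without either input array (15.9%).

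The GFP and V5 antibodies bind the same fusion protein. Between their IPs no member and none of the 19032 genes was called (limma; 0 members and 190 genes at an unadjusted p under 0.05). Of the members, 73 of 76 were below 0 in GFP IP against V5 IP, against 10058 of all 19032 genes. On both slides 66 members were lower, against 36.2% of all genes. The count of members below 0 was 50 without V5 IP 1 and 55 without GFP IP 2. Their median was -0.13, with a range of -0.36 to 0.01, and the median of all genes was -0.01. The members' median was -0.20 without V5 IP 2 and -0.26 with normexp background correction.

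Large and small subunit genes had nearly equal medians. In V5 IP against mock IP the median was -0.73 for 45 large and -0.75 for 31 small subunit genes. Of these, 14 of 45 and 11 of 31 were called lower, against 21.4% of all genes. In GFP IP against mock IP the median was -0.88 and -0.87, with 28 of 45 and 16 of 31 called lower, against 26.5% of all genes. The large subunit median minus the small was 0.02 with V5 and -0.01 with GFP. Both differences changed sign between arrays left out, with a range of -0.03 to 0.10 with V5 and -0.02 to 0.10 with GFP. Against input the differences were -0.04 with V5, -0.05 with GFP and -0.05 for mock IP.

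The variants differed in their values. Rps27l, which encodes a close variant of RPS27, had 8.27 and 7.45 in the V5 IP, 8.11 and 7.45 in the GFP IP, 8.10 and 7.48 in mock IP and 7.18 and 6.96 in input. All 3 kinds of IP lay above input, and the DAZL IPs overlapped mock IP. Its fold change against input was 0.79 ± 0.38 in V5 IP (adjusted p = 0.16, and 0.021 with slide as a block). Against mock IP, Rpl36al was at 0.30 with V5 and 0.25 with GFP and was not called. Rpl3l, the striated muscle variant of Rpl3, was dim, between -2.32 and -0.90, and fell by 0.83 with V5 and by 1.07 with GFP. Rps19bp1 fell by 1.05 and 1.16. Near-identical processed copies of ribosomal protein genes are common in the mouse genome, so some probes may read RNA of more than 1 locus.

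Different probes of 1 gene did not always give the same direction. Of 127 kept probes of the members, which include 2 for Rplp0 under its older name Arbp, 32 were called lower in V5 IP against mock IP (17.1% of all 28104 kept probes) and 2 were called higher (15.4%). In GFP IP against mock IP 67 were called lower (22.5%) and 3 higher (17.1%). Among 38 members with several kept probes, 4 had probes of opposite sign with V5 and 5 with GFP. The brightest kept probe stood for each gene above.

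Rps20, which encodes a protein of the 40S head, showed the widest gap. Its brighter probe had 8.83 and 8.42 in the V5 IP, 8.72 and 8.36 in the GFP IP, 9.78 and 8.80 in mock IP and 8.50 and 8.29 in input. Its dimmer probe had 3.18 and 2.91 in the V5 IP, 3.17 and 2.97 in the GFP IP, -0.07 and 0.33 in mock IP and 0.87 and 0.88 in input. The dimmer probe thus lay far above both controls in all 4 DAZL IP arrays, while on the brighter one V5 IP 1 lay level with mock IP 2. The fold change of the dimmer probe was 2.92 ± 0.25 with V5 (adjusted p over probes = 0.0025) and 2.94 ± 0.25 with GFP (adjusted p over probes = 0.0022). The brighter probe was at -0.67 and -0.75 and was not called.

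Smaller gaps were seen for Rps15a, Rps24, Rpl22 and Rpsa. The dimmer probe of Rps15a had -2.41 and -2.67 in the V5 IP, -2.16 and -2.57 in the GFP IP, -3.73 and -3.36 in mock IP and -3.08 and -3.01 in input. It rose by 1.01 ± 0.26 with V5 (adjusted p over probes = 0.029) and 1.18 ± 0.26 with GFP (adjusted p over probes = 0.015), where the brighter probe fell by 0.96 and 1.19. One dimmer probe of Rps24 was at 1.04 with V5 (adjusted p over probes = 0.069) and rose by 1.16 with GFP (adjusted p over probes = 0.045), and the other was at -0.06 and -0.21. The dimmer probe of Rpl22 was at 0.34 and 0.47 and that of Rpsa at -0.08 and 0.04, none of them called. Both probes of Rpl31 were above 0, at 0.20 and 0.80 with V5. The sources used here do not say which transcript each probe reads.

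**Figure D3:**
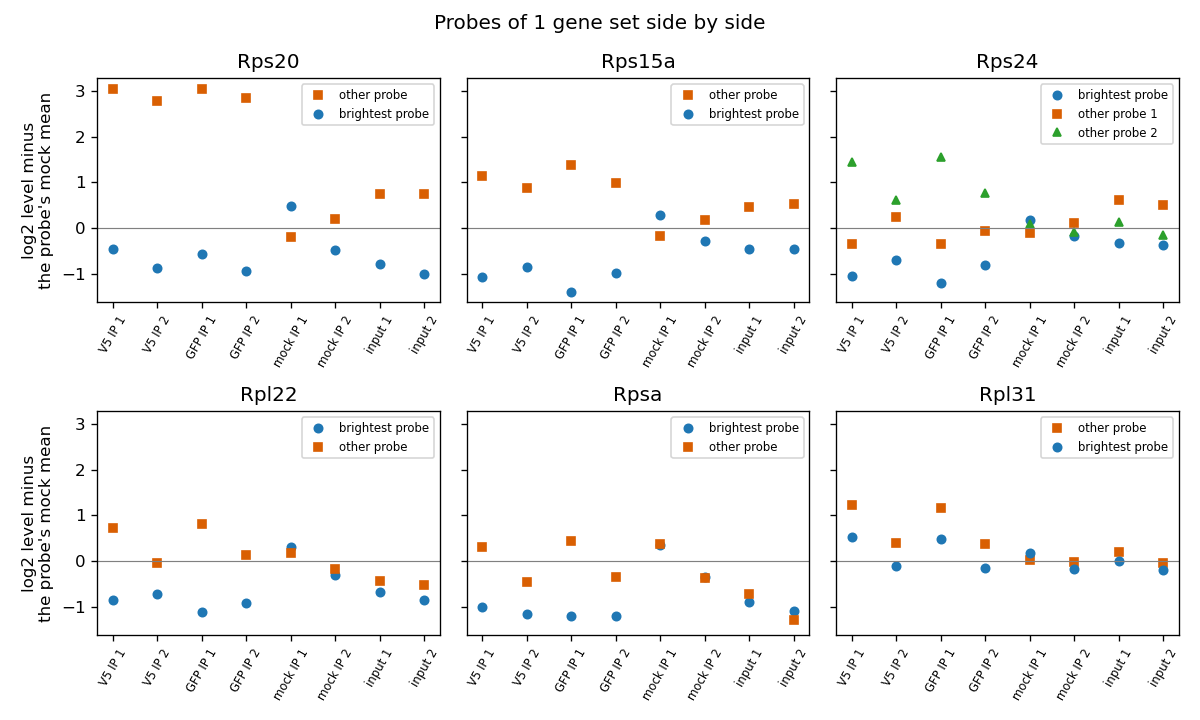
Each panel sets the kept probes of 1 gene side by side, as the log2 level on each array minus the probe's own mean over the mock IP arrays. The dimmer probe of Rps20 lies near 3 on all 4 DAZL IP arrays while the brighter one lies below 0 there.

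Against total input the picture was different. Only 3 members were lower in V5 IP than in input (3.95% of the members, against 13.7% of all genes) and 9 in GFP IP (11.8%, against 16.9%). None was higher, against 14.1% and 16% of all genes (0 also at an unadjusted p under 0.05 in both). The members' median was -0.07 with V5 and -0.23 with GFP, and that of all genes was -0.11 in both. The sign of the V5 median relative to all genes turned with the processing. With slide as a block 9 and 15 members were called lower, against 24.3% and 26.9% of all genes. Leaving out 1 array gave 0 to 6 calls with V5 and 0 to 15 with GFP, with 0 in both without input 1.

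Rpl4, which encodes a large subunit protein with a long loop in the exit tunnel, was the lowest. It had 4.21 and 4.67 in the V5 IP, 4.21 and 4.57 in the GFP IP, 4.79 and 4.96 in mock IP and 6.21 and 5.87 in input. All 6 IP arrays lay below both input arrays. Against input it fell by 1.60 in V5 IP (SE 0.28, adjusted p = 0.0066), by 1.64 in GFP IP (adjusted p = 0.0051) and by 1.16 in mock IP (adjusted p = 0.042). Rpl4 was thus lower in all 3 kinds of IP, and its values in the DAZL IPs against mock IP were not called.

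Rpl29, a 60S protein gene, had 5.31 and 5.68 in the V5 IP, 5.09 and 5.49 in the GFP IP, 6.32 and 6.21 in mock IP and 6.40 and 6.42 in input. It was lower in the DAZL IPs than in both controls, by 0.91 in V5 IP (log2 -0.91 ± 0.25, adjusted p = 0.034) and 1.12 in GFP IP (log2 -1.12 ± 0.25, adjusted p = 0.014) against input. Rpl27a fell by 0.96 and 1.02 against input. Also called in GFP IP against input were Rpl24 at -1.06, Rps3a1 at -0.98, Rps6 at -0.89, Rpl6 and Rpl26 at -0.86 and Rpl10a at -0.69. Rps6 encodes the S6 protein, the best-known substrate of the S6 kinases. At the other end Rps14 had 9.55 and 9.04 in V5 IP and 8.99 and 8.70 in input, a fold change of 0.45 ± 0.36 (adjusted p = 0.39).

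The mock IP itself held more ribosomal protein mRNA than input on this scale. The value was above 0 for 71 of 76 members, while 7646 of all 19032 genes were below 0. Both mock IP arrays lay above both input arrays for 64 members, against 40.8% of all genes. No member was called higher, against 6.64% of all genes. At an unadjusted p under 0.05 (limma) 25 members were higher, against 3943 of all 19032 genes. With slide as a block 32 were called, against 21.4% of all genes. The median was 0.65 and that of all genes was 0.20, a distance of 0.44, which was 0.56 on slide 1 and 0.32 on slide 2. With quantile normalization the distance was -0.10 and 43 of 76 members were above 0. The highest was Rpl41 at 1.08 ± 0.35 (adjusted p = 0.080), followed by Rps27 at 1.07 and Rps14 at 1.05. Rpl4 was the single member called lower (4.08% of all genes). The members' median was 0.31 without mock IP 1 and 1.01 without mock IP 2, where that of all genes was 0.10 and 0.30.

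Other genes of the translation machinery were measured on the same arrays. Of 78 mitochondrial ribosomal protein genes, which serve the ribosome inside mitochondria, 36 were lower and 4 higher in V5 IP against mock IP, where 21.4% of all genes were lower and 14.6% higher. With GFP 49 were lower and 4 higher, where 26.5% of all genes were lower and 16.3% higher. The slide block made it 55 lower with V5, against 38.5% of all genes. Their medians there were -0.74 and -0.89, close to those of the cytosolic members. Against input 35 of the 78 were lower and 2 higher in V5 IP (13.7% and 14.1% of all genes), and 43 were lower and 2 higher in GFP IP (16.9% and 16%), with medians of -0.79 and -0.89. In mock IP against input their median was -0.14, with 7 lower and 1 higher (4.08% and 6.64% of all genes). Mrpl50 was the highest, at 2.54 ± 0.28 in V5 IP against mock IP (adjusted p = 0.0022), and Mrps28 the lowest, at -1.26 ± 0.36 (adjusted p = 0.034).

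Among 16 other mRNAs known for an oligopyrimidine start, 6 were lower and 2 higher in V5 IP against mock IP (21.4% and 14.6% of all genes), and 7 were lower and 2 higher in GFP IP (26.5% and 16.3%). Their medians against input were -0.51 with V5 and -0.52 with GFP. The lowest was Eef1d, of the elongation factor 1 complex, at -1.12 ± 0.29 with V5 (adjusted p = 0.027). The 2 that rose were Nap1l1, a histone chaperone gene, at 2.44 ± 0.27 (adjusted p = 0.0022) and Npm1, which encodes nucleophosmin, at 1.30 ± 0.26 (adjusted p = 0.015). Of 26 ribosome biogenesis genes, 6 were lower and 3 higher with V5 against mock IP, shares near the 21.4% and 14.6% of all genes. With GFP 12 were lower and 4 higher, where 26.5% of all genes were lower and 16.3% higher. Against input 10 were lower and 3 higher in V5 IP (13.7% and 14.1% of all genes). In GFP IP 15 were lower and 3 higher against input (16.9% and 16%), and the medians against input were -0.80 and -0.86. The slide block made it 13 lower with V5, against 38.5% of all genes. Ddx21, a nucleolar RNA helicase gene, rose by 2.18 ± 0.24 with V5 (adjusted p = 0.0022), and Bop1, a 60S assembly factor gene, fell by 1.26 (adjusted p = 0.028). No member of the standard set reached such increases through its brightest probe.

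**Figure D4:**
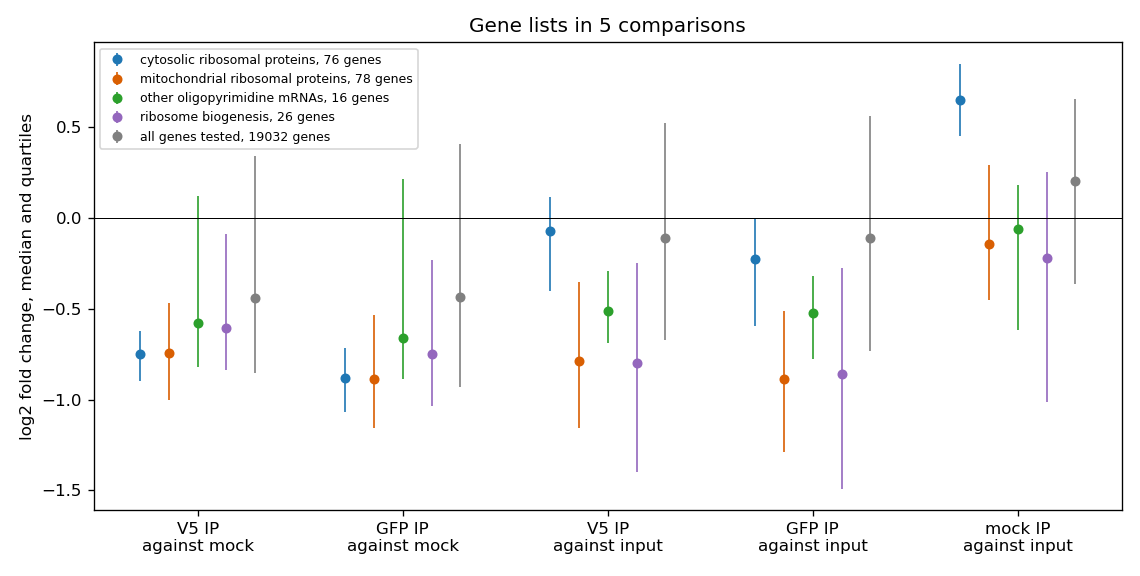
Points are the median log2 fold change of each list in 5 comparisons, with bars over the middle 50% of its genes, the cytosolic members in blue and all genes tested in grey. The cytosolic members lie at -0.75 and -0.88 against mock IP, at -0.07 and -0.23 against input, and at 0.65 in mock IP against input, where the mitochondrial list lies at -0.14 (with quantile normalization the cytosolic median there is 0.03).

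Genes for proteins that the rule left out but that belong to or bind the cytosolic ribosome were also measured. Fau, ubiquitin-like and joined to RPS30, was at -0.95 with V5 (adjusted p = 0.055) and fell by 1.04 with GFP against mock IP. Rack1, a scaffold on the 40S subunit, was at -0.68 and -0.69 and was not called. With slide as a block the adjusted p was 0.016 for Fau and 0.049 for Rack1 with V5, and 0.010 and 0.044 with GFP.

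Brightness moved with these values. The members averaged over an intensity of 100000 in 61 of 76 cases, where the scanner saturates near 640662, and none was saturated. Their median intensity per array lay between 108500 and 248500, a 2.29-fold span, while the 75th percentile that the levels are set against spanned 3.21-fold. Without scaling, the members' median was -0.03 in V5 IP against mock IP, and that of all genes was 0.28. In GFP IP against mock IP these were -0.20 and 0.24, and in mock IP against input they were -0.34 and -0.78. The 111 other genes above an intensity of 100000, chosen after the data were seen, had scaled medians of -0.73 with V5 and -0.81 with GFP, against -0.72 and -0.85 for the 61 members above it. The 15 dimmer members had -0.77 and -0.97, with 9 and 12 of them called lower. Of the 61 brighter members 16 and 32 were called lower, against 21.4% and 26.5% of all genes.

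Against input, the brighter members had the higher values. With the members split by intensity into 3 groups, from the dimmest to the brightest, the median was -0.40, -0.17 and 0.16 with V5, -0.61, -0.34 and 0.08 with GFP, and 0.38, 0.60 and 0.85 in mock IP against input. Across the 76 members, which share their arrays and are not independent replicates, Spearman's rho between mean intensity and fold change was 0.59, 0.63 and 0.67 in these comparisons, and 0.11 in V5 IP against mock IP. Of the 3 members called lower in V5 IP against input, all were among the 15 under 100000. Whether brightness, labelling or the 75th percentile of mock IP 1 sets these shifts was not tested.

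**Figure D5:**
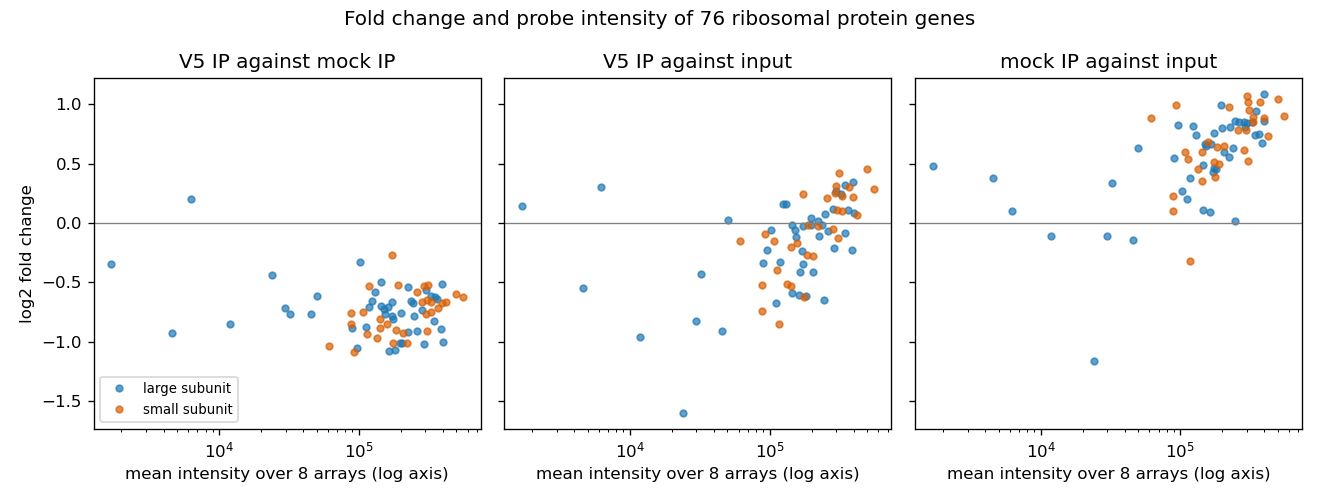
Each point is 1 member, with its mean processed intensity over the 8 arrays on a log axis and its log2 fold change in V5 IP against mock IP (left), V5 IP against input (middle) and mock IP against input (right). The fold changes climb with intensity in the middle and right panels, and the members sit mostly between 100000 and 556598. With quantile normalization 13 of 76 members are above 0 in the left panel and 43 in the right.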

How the data were processed

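Every sample was 1 one-colour array. Per the file headers, Agilent Feature Extraction 9.1.3.1 made the deposited processed intensity, which is background-subtracted, detrended and written to 3 significant digits. The authors' deposited whole-series table holds a signal divided by the array median in GeneSifter, per the file headers. A deposited quality score in it was used to pair entries with spots, and for nothing else.

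The processed intensity was scaled to the 75th percentile of its array and taken to log2. A probe was kept if both arrays of any group showed it well above background (28104 probes), and of each gene's kept probes the brightest was used (19032 genes). RefSeq (GRCm38.p6) gave gene names through accession or synonym. The 4 groups were fitted together with limma 3.58.1 (R 4.3.3) and its two-sided moderated test, with Benjamini-Hochberg adjustment over all genes and calls at an adjusted p under 0.05. The number of arrays limits the precision. The fit was tested on simulated data.

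Per the file headers, the replicate number is also the slide, so the slide block is the replicate block. Position on the slide goes with the group and was not modelled. Between pairs of groups, deviations of same-numbered arrays correlated at 0.31 (input and V5 IP) to 0.78 (V5 IP and GFP IP). The reported fit leaves this pairing out, and the slide block takes it in. The members, lists, tests and named genes were chosen with earlier results of these data known. Named were Rpl26, Rplp0, Rplp1, Rplp2 and Rpsa, the 5 highest and 5 lowest of each subunit in each IP against mock IP, the 3 highest and 3 lowest otherwise, members with probes of opposite sign, and the 2 highest and 2 lowest of other lists. The variants and further members called against input were named after their values were seen, and some genes that the rule names are not reported here. Lists were described by counts and medians, with no test. Alternatives were the slide block, normexp, quantile normalization, centring on the median, 2 other filters, the mean of probes, probes as features, 2 groups alone, the deposited table and each array left out.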

Additional observations from a re-analysis of the deposited data

How the results depend on the processing

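The members' median against mock IP stayed below 0 with each alternative setting of the processing, but with quantile normalization 13 members with V5 and 11 with GFP were above 0, where the reported fit had 1 in each, and the number of calls moved. With 25 members lower with V5 and 44 with GFP, slide as a replicate block gave 56 and 67, normexp 0 and 3, quantile normalization 2 and 9, centring on the median of the genes tested 3 and 21, no filter on dim probes 0 and 26, only the 2 groups compared 0 and 16, and 3 and 24 with the deposited table. The shares of all genes called lower with V5 and GFP were 38.5% and 40.3% with the block, 0.0578% and 2.45% with normexp, 20.8% and 24.1% with quantile normalization, 8.25% and 15.1% with centring, 3.58% and 11.5% with no filter, 2.1% and 15.4% with only the 2 groups, and 8.01% and 14.8% with the deposited table. Over all genes, centring on the median gave 2844 higher and 1570 lower genes with V5, where 2778 and 4076 were called without it, and 3356 and 2883 with GFP, where 3104 and 5051 were. For mock IP against input it gave 814 and 844, where 1263 and 776 were called. Taking the mean of all kept probes made 1 member higher with each antibody, against mock IP and against input.

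Against input, with 3 members lower in V5 IP and 9 in GFP IP, slide as a replicate block gave 9 and 15, normexp 1 and 1, and no filter on dim probes 1 and 3. Of all genes 24.3% and 26.9% were lower with the block, 1.76% and 2.49% with normexp, and 6.2% and 8.36% with no filter. The filter on all 8 arrays gave 5 with V5 (15.3% of all genes), and the deposited table gave 4 with GFP (13.2%). In mock IP against input, where 0 members were higher, the replicate block gave 32 (21.4% of all genes) and the filter on all 8 arrays gave 3 (10.6%). The single lower call became 0 with normexp, with quantile normalization, with no filter and with only the 2 groups compared. The shares of all genes lower there were 0%, 6.12%, 0.249% and 0.105%. The replicate block left the members' fold changes as they were.

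Leaving out 1 array at a time gave 0 to 57 lower calls in V5 IP and 0 to 63 in GFP IP against mock IP, 0 to 6 and 0 to 15 against input, and 0 to 34 higher and 0 to 1 lower calls in mock IP against input. It gave 0 calls in GFP IP against V5 IP. The members' median relative to all genes then ranged from -0.62 to -0.12 in V5 IP and from -0.73 to -0.25 in GFP IP against mock IP, from -0.084 to 0.15 and from -0.22 to 0.0033 against input, and from 0.21 to 0.70 in mock IP against input. The large minus small subunit median ranged from -0.031 to 0.10 in V5 IP and from -0.024 to 0.10 in GFP IP against mock IP, from -0.088 to -0.0066 and from -0.13 to -0.038 against input, and from -0.18 to -0.029 in mock IP against input.

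The median relative to all genes moved to -0.029 with quantile normalization in V5 IP against mock IP and to -0.94 with normexp in GFP IP against mock IP. Against input it became 0.62 with normexp, -0.18 with quantile normalization and -0.14 with no filter in V5 IP, and 0.060 with normexp and -0.33 with quantile normalization in GFP IP. In mock IP against input it became 0.98 with normexp, -0.10 with quantile normalization and 0.26 with no filter. The large minus small subunit median became -0.10 with quantile normalization and -0.010 with the mean of probes in V5 IP against mock IP, and -0.10 with quantile normalization in GFP IP against mock IP. It became -0.070 with the mean of probes in V5 IP against input, -0.021 with normexp, -0.12 with quantile normalization and -0.10 with the mean of probes in GFP IP against input, and 0.0076 with quantile normalization in mock IP against input.

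Single genes changed sign mostly with quantile normalization. In V5 IP against mock IP it gave 0.045 for Rplp0, 0.15 for Rplp1, 0.045 for Rplp2, 0.038 for Rps10, 0.12 for Rps28, 0.10 for Rps21 and 0.00073 for Rps20. In GFP IP against mock IP it gave 0.14 for Rplp0, 0.16 for Rplp1, 0.055 for Rplp2, 0.034 for Rps10, 0.057 for Rps12, 0.092 for Rps23, 0.0067 for Rack1 and 0.36 for Rps27l. It gave -0.22 for Rpl26 in mock IP against input. The mean of all kept probes, which brings in the dimmer probes, gave 1.13 for Rps20, 0.021 for Rps15a and 0.032 for Rps24 in V5 IP against mock IP, and 1.10 for Rps20 in GFP IP against mock IP. Against input it gave -0.031 for Rplp0 and 0.42 for Rpsa in V5 IP, and -0.15 for Rplp0, 0.42 for Rpsa and -0.17 for Rps18 in GFP IP. Normexp gave 0.12 for Rpsa in V5 IP against input and 0.019 for Rpl29 in mock IP against input, and the deposited values gave 0.019 for Rpsa in V5 IP against input and 0.19 for Rps27l in GFP IP against mock IP, and centring 0.17 for Rps27l there. With each array left out in turn, Rpl31 ranged from -0.12 to 0.52 in V5 IP and from -0.14 to 0.49 in GFP IP against mock IP, and Rps27l from -0.34 to 0.48 and from -0.34 to 0.32. Against input Rplp0 ranged from -0.057 to 0.60 in V5 IP and from -0.00037 to 0.57 in GFP IP, Rplp1 from -0.010 to 0.70 and from -0.0027 to 0.68, and Rpsa from -0.19 to 0.010 in V5 IP.

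Apart from the construction of the mean of probes and of the smaller fits, the cause of these changes was not tested. With 2 arrays a group, an exact permutation test cannot pass the threshold, so every call leans on the spread shared across genes and groups. Over the 8 arrays 29 of 76 members spanned under 2-fold in intensity.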
